A study of Mus musculus with 3 samples.

Results

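The 8 genes described here, Svopl, Slc32a1, Pcp4, Bhlhe22, Amph, Clec18a, Akr1b7 and Slco4c1, were selected on the ratio of their signals on these arrays. Their signals were much lower in Fgfrl1-/- than in wildtype kidney rudiments. They were grouped as genes of little-known function in the kidney, although Slco4c1 is a transporter of the kidney proximal tubule. They were found by their gene name in the scanner files, where Bhlhe22 still carries the older name Bhlhb5 and Clec18a the older name Mrcl. They were measured by 12 of the 41174 probes on the array and are 8 of the 19754 genes that the probes could be assigned to. Because the difference between the genotypes chose these genes, that difference is described below for them and is not tested.

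The series compared metanephric kidney rudiments of C57BL/6 mouse embryos at E12.5 that lacked Fgfrl1 with those of their wildtype littermates, to learn which transcripts depend on this receptor when the first nephrons form. RNA came from pools of 6 to 9 rudiments. Each of 3 separate Fgfrl1-/- preparations was hybridized with a different one of 3 wildtype preparations to an Agilent array read in 2 colours. The Fgfrl1-/- sample was labelled with Cy3 and the wildtype sample with Cy5 on all 3 arrays. With 0 dye-swapped arrays, an effect of the dye and an effect of the genotype cannot be told apart. The loss of the gene was not restricted to the kidney, and a pool holds the ureteric bud, the mesenchyme, stroma, vessels and blood together. In such bulk samples fewer cells of a type and less RNA per cell cannot be told apart.

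The targeted gene checked the labels. Fgfrl1, a receptor of the fibroblast growth factor receptor family without a kinase domain, gave log2 ratios of Fgfrl1-/- over wildtype of -1.21, -1.51 and -1.83 on arrays 1, 2 and 3, and stood well above background in all 6 channels. Its mean was -1.52 ± 0.306 (SD, n = 3), with an adjusted p of 0.0108 by limma and of 0.0915 when array 3 was left out. Where its 1 probe lies relative to the deleted part of the gene is not given in the sources used here. Array 1 lay on 1 slide and arrays 2 and 3 on another, and over all probes the log2 ratios of array 1 correlated less with those of arrays 2 and 3 (r = 0.106 and 0.222 across probes) than those of arrays 2 and 3 with each other (r = 0.713). Each value of the 8 genes is therefore given per array.

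As background, several of these genes are best known from neurons. Slc32a1 encodes the vesicular transporter that loads GABA and glycine into synaptic vesicles, and Svopl encodes a transporter-like membrane protein related to the synaptic vesicle proteins of the SV2 family. Amph encodes amphiphysin, a protein that bends membranes during clathrin-mediated endocytosis, and Pcp4 encodes a small peptide that binds calmodulin. Bhlhe22 is a basic helix-loop-helix transcription factor of the retina, brain and spinal cord. Clec18a is a C-type lectin with a CAP domain, Akr1b7 is an aldo-keto reductase that is abundant in the adrenal cortex and the vas deferens, and Slco4c1 is an organic anion transporter of the kidney proximal tubule. At E12.5 the ureteric bud has just branched and the mesenchyme around its tips begins to form pretubular aggregates and renal vesicles, the precursors of the nephron.

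The probes are oligonucleotides of 60 bases. In 4 genes the array carries a second probe at another place, and these pairs are printed because the sizes of their differences diverge. The place of each is that on the mm8 assembly given in the files, and which exon it lies in was not analysed here. The brighter probe of each gene is called probe 1. The whole probe is in lower case, with no part marked.
Svopl probe 1 (chr6:37913377-37913436, minus strand): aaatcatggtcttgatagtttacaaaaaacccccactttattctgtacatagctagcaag
Svopl probe 2 (chr6:37944886-37944945, minus strand): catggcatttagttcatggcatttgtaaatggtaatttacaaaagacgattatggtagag
Bhlhe22 probe 1 (chr3:18248768-18248827, plus strand): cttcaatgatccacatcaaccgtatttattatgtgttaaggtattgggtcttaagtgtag
Bhlhe22 probe 2 (chr3:18249076-18249135, plus strand): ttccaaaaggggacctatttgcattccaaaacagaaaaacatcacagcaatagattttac
Amph probe 1 (chr13:19158290-19158349, plus strand): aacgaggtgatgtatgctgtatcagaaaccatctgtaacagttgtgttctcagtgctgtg
Amph probe 2 (chr13:19108938-19108997, plus strand): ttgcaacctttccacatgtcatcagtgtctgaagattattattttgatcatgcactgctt
Slco4c1 probe 1 (chr1:98647191-98647250, minus strand): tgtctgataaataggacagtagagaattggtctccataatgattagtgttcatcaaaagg
Slco4c1 probe 2 (chr1:98649461-98651595, minus strand): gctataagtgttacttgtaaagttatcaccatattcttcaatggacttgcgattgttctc

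The pairs lie 31449 bases apart in Svopl, 248 in Bhlhe22, 49292 in Amph and 2210 in Slco4c1. The second Slco4c1 probe covers 2135 bases of the genome with its 60 bases, so that it is interrupted there. Slc32a1, Pcp4, Clec18a and Akr1b7 have 1 probe each, on mm8 at chr2:158307029-158307088, chr16:96630544-96630603, chr8:113957361-113957420 and chr6:34353063-34353122. The GC content of the 12 probes ran from 33.3% to 48.3%, with a median of 35.9% against 40.0% over all probes.

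Taken by probe 1, all 8 genes were at least 2-fold lower in Fgfrl1-/- rudiments, with a median log2 ratio of -1.33. Over all genes, 0.208% were at least 2-fold lower, but since this contrast chose the 8 genes, nothing follows from that gap. The median over the 8 genes was -1.49, -1.30 and -1.33 on arrays 1, 2 and 3. Svopl and Slc32a1 were the 2 genes more than 4-fold lower. Of all 12 probes, 8 were at least 2-fold lower in the mean (0.109% of all probes) and 5 on each of the 3 arrays (0.0680% of all probes).

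**Figure D1:**
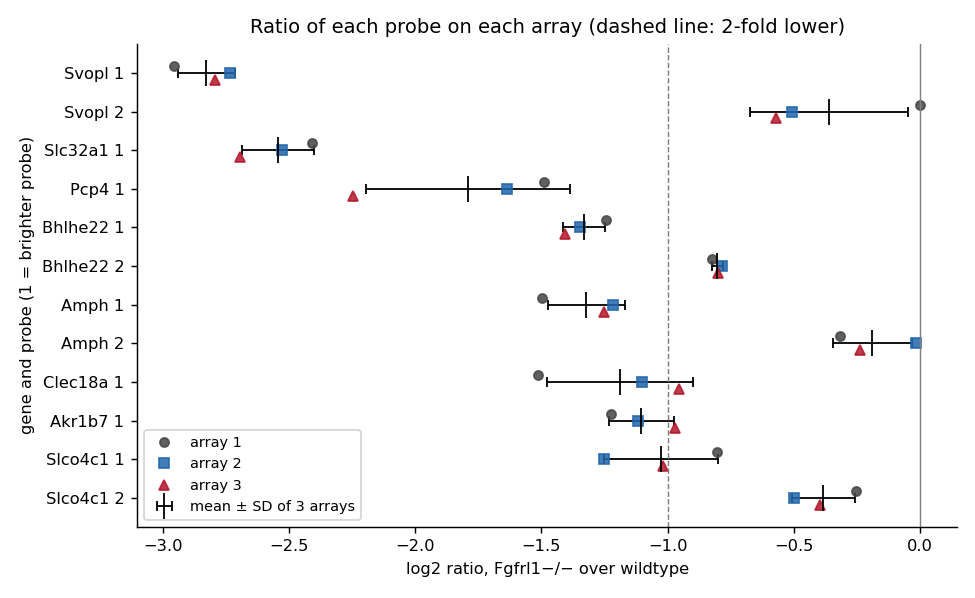
Log2 ratio of Fgfrl1-/- over wildtype (x axis) for each of the 12 probes (y axis), with 1 marker per array, the mean as a vertical tick and the SD of 3 arrays as a bar; the dashed line marks 2-fold lower. Probe 1 of each gene has its mean left of the dashed line, and the second probes of Svopl, Bhlhe22, Amph and Slco4c1 have theirs right of it.

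Svopl and Slc32a1 showed the widest differences. Svopl probe 1 had normalised log2 signals of 6.06, 6.80 and 6.49 in the Fgfrl1-/- pools of arrays 1, 2 and 3, and of 9.01, 9.53 and 9.28 in the wildtype pools. The lowest wildtype pool was 2.21 above the highest Fgfrl1-/- pool on the log2 scale. The log2 ratios were -2.95, -2.73 and -2.79, with a mean of -2.83 ± 0.114 (SD, n = 3), a 7.10-fold lower signal. In the scanner's own units, before any correction, its wildtype spots read 468, 962 and 738 over local backgrounds of 58, 51.5 and 49, and its Fgfrl1-/- spots read 44, 47 and 53 over 20.5, 25 and 27. The Fgfrl1-/- signal was thus near the background but was still called well above it on all 3 arrays.

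Svopl probe 2 gave another picture. Its log2 ratios were -0.000146, -0.51 and -0.57, so that array 1 showed no difference, and its mean was -0.36 ± 0.31 (SD, n = 3). Its normalised log2 signals in wildtype pools were 6.36, 6.81 and 6.77, against 6.36, 6.31 and 6.20 in Fgfrl1-/- pools. It was well above background in 2 of 3 Fgfrl1-/- channels and in all 3 wildtype channels. The mean log2 ratios of the probes of Svopl differed by -2.47.

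Slc32a1, the GABA and glycine transporter, had normalised log2 signals of 9.33, 9.75 and 9.68 in wildtype pools and of 6.92, 7.22 and 6.99 in Fgfrl1-/- pools. Its log2 ratios of -2.41, -2.53 and -2.69 lay close together, with a mean of -2.54 ± 0.144 (SD, n = 3), a 5.83-fold lower signal. The lowest wildtype pool was 2.11 above the highest Fgfrl1-/- pool on the log2 scale, and the probe was well above background in all 6 channels.

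Amph probe 1 had log2 signals of 11.36, 11.53 and 11.53 in wildtype pools and of 9.86, 10.31 and 10.28 in Fgfrl1-/- pools. Its log2 ratios were -1.50, -1.22 and -1.25, with a mean of -1.32 ± 0.153 (SD, n = 3). Its raw Fgfrl1-/- spots read 769, 844.5 and 1204 over backgrounds of 15, 30.5 and 24, so that this ratio was measured far from the background in both genotypes. Amph probe 2 was well above background in only 1 of 3 Fgfrl1-/- channels and 2 of 3 wildtype channels, and its log2 ratios of -0.32, -0.016 and -0.24 had a mean of -0.19 ± 0.156. All 4 second probes were dimmer than probe 1 by the choice of names, and the part of dim signals in the divergence of the pairs was not tested.

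Pcp4, the calmodulin-binding peptide, had log2 signals of 8.15, 8.70 and 8.64 in wildtype pools and of 6.66, 7.07 and 6.39 in Fgfrl1-/- pools. The groups did not overlap, and the probe was well above background in all 6 channels. The size of its difference varied most among the 8 genes, with log2 ratios of -1.49, -1.64 and -2.25 that averaged -1.79 ± 0.403 (SD, n = 3), where the SDs of probe 1 of the 8 genes ran from 0.0831 to 0.403 with a median of 0.148.

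Bhlhe22, the only transcription factor among the 8 genes, had the smallest of these SDs. Its probe 1 had log2 ratios of -1.24, -1.35 and -1.41, with a mean of -1.33 ± 0.0831 (SD, n = 3), from log2 signals of 7.46, 8.19 and 8.13 in wildtype pools and 6.21, 6.84 and 6.72 in Fgfrl1-/- pools. Probe 2, 248 bases further on, also showed lower signals on each array, with log2 ratios of -0.83, -0.78 and -0.80 that averaged -0.80 ± 0.0208. It was well above background in 2 of 3 Fgfrl1-/- channels. Array 1 gave the lowest signals of both genotypes with both probes, and yet a ratio close to that of the other arrays.

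Clec18a, the C-type lectin, had log2 signals of 7.69, 7.45 and 7.14 in wildtype pools and of 6.17, 6.35 and 6.18 in Fgfrl1-/- pools. Its log2 ratios were -1.51, -1.10 and -0.95, which averaged -1.19 ± 0.29 (SD, n = 3). It was well above background in only 1 of 3 Fgfrl1-/- channels, where raw spots read 47.5, 30 and 29 over backgrounds of 16, 22 and 21. How far below wildtype the Fgfrl1-/- level lay therefore depended on the treatment of the background, and the log2 ratio was -2.42 when no offset was added to the background-corrected signals and -3.99 with the scanner software's own ratios.

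Akr1b7, the aldo-keto reductase, had log2 signals of 8.66, 8.32 and 8.17 in wildtype pools and of 7.44, 7.20 and 7.20 in Fgfrl1-/- pools. Its log2 ratios of -1.23, -1.12 and -0.97 gave a mean of -1.10 ± 0.129 (SD, n = 3), a 2.15-fold lower signal. Array 1 held the highest signal of either genotype. Because Akr1b7 marks the adrenal cortex, 10 measured markers of steroidogenic cells were read beside it. Of these, limma called 0 lower and 0 higher (2 at an unadjusted p below 0.05, which 21.1% of all genes had), with a median log2 ratio of -0.09 and Cyp11a1 not well above background on any array. Without array 1 the test called 2 of them lower, Mc2r at -0.35 and Star at -0.26, where it called 11.4% of all genes lower. Their summed log2 signal was 15.24 in the Fgfrl1-/- pool and 14.59 in the wildtype pool of array 1, but 12.18 to 12.20 and 12.19 to 12.32 in those of arrays 2 and 3. The log2 ratio of Akr1b7 averaged -1.04 on arrays 2 and 3, and the part of steroidogenic cells in its difference was not tested.

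Slco4c1, the organic anion transporter, had log2 signals of 6.88, 8.28 and 8.05 in wildtype pools and of 6.07, 7.02 and 7.03 in Fgfrl1-/- pools with probe 1. The genotypes overlapped across arrays, because the wildtype pool of array 1 lay 0.16 below the highest Fgfrl1-/- pool, while the Fgfrl1-/- pool was lower within each array. Log2 ratios were -0.80, -1.25 and -1.02 and averaged -1.02 ± 0.225 (SD, n = 3), a 2.04-fold lower signal. Probe 2 had smaller ratios of -0.25, -0.50 and -0.40 that averaged -0.38 ± 0.123, its genotypes overlapped across arrays too, and it was well above background in 2 of 3 Fgfrl1-/- channels.

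**Figure D2:**
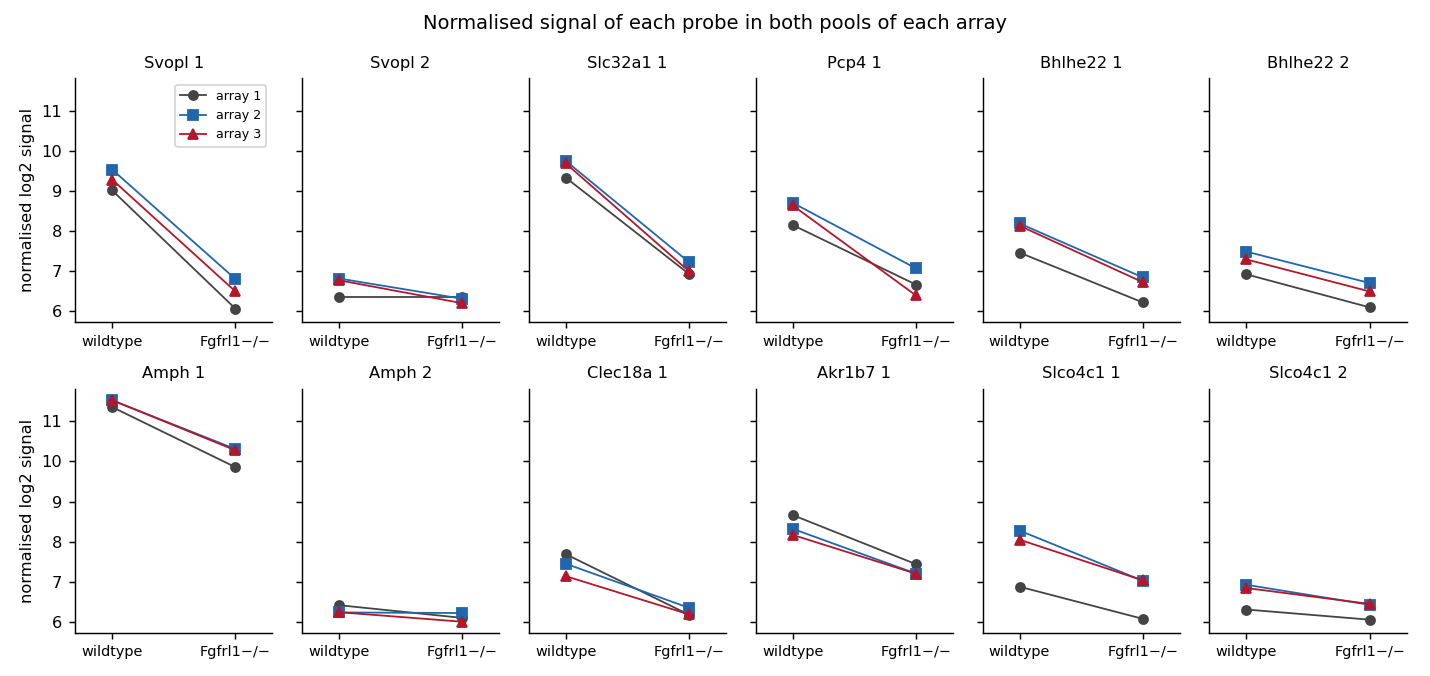
Normalised log2 signal (y axis) of each probe in the wildtype and Fgfrl1-/- pools (x axis), with a line joining the pools of 1 array and a colour and marker per array. Svopl probe 1 and Slc32a1 have the steepest lines, Slco4c1 starts lowest on array 1, and heights are not comparable between probes, because each probe binds its target with its own strength.

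Over the 12 probes, signals of the genotypes did not overlap across arrays for 10, which 7.19% of all probes also showed with the wildtype higher. The 10 include Svopl probe 2 and Amph probe 2, whose groups were only 0.000146 and 0.0158 apart on the log2 scale. All 12 were lower on each of the 3 arrays if the value of -0.000146 for Svopl probe 2 on array 1 is counted, which was the case for 19.2% of all probes. The wildtype channel was well above background on all 3 arrays for 11 probes, and the Fgfrl1-/- channel for 7. Of the 41174 probes of the array, 24296 outside the 12 had such a wildtype channel. The same count for the Fgfrl1-/- channel over all probes was not made. In the 4 genes with a pair of probes, probe 1 gave the larger difference each time under the processing reported here. The log2 ratios differed by -0.53 in Bhlhe22, -0.64 in Slco4c1 and -1.13 in Amph, besides the -2.47 in Svopl. This order also held in all 4 genes without background subtraction and with no offset. With no offset, probes 1 and 2 gave -1.37 and -0.63 in Amph and -1.66 and -0.93 in Slco4c1. The scanner software's ratios replace the normalisation as well as the background correction. For probes 1 and 2 they gave -1.43 and -1.70 in Amph and -2.01 and -2.03 in Slco4c1. They gave -4.71 and -1.71 in Svopl and -2.64 and -2.46 in Bhlhe22, which kept the order.

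The sizes of the ratios followed the treatment of the background, but their direction did not. Without background subtraction the log2 ratio of Svopl was -3.33 and with no offset it was -4.11. The same settings gave -2.81 and -3.22 for Slc32a1, and -1.34 and -1.37 for the bright probe 1 of Amph. All 8 genes were lower under each of 15 alternatives, but they were chosen for this direction on the same arrays. The alternatives in variance model and pairing change only the test and could not move the ratios. Slco4c1 fell short of a 2-fold difference with quantile normalisation (-0.96), a single value per slide (-0.97) and array 2 left out (-0.91), and with the mean of both probes so did Slco4c1 (-0.70) and Amph (-0.76).

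**Figure D3:**
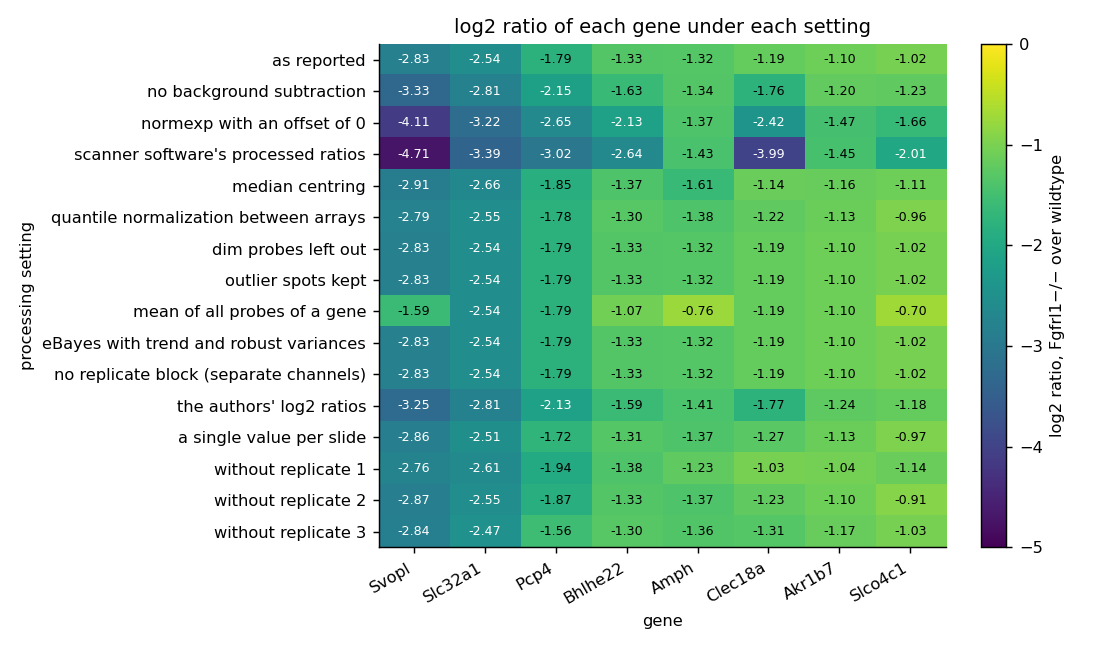
Log2 ratio of Fgfrl1-/- over wildtype for each of the 8 genes (x axis) under the processing reported here and 15 alternatives (y axis), printed in each cell and coloured by size. Amph stays between -1.23 and -1.61 in every row that uses probe 1 alone, whereas Svopl and Clec18a reach -4.71 and -3.99 with the scanner software's ratios.

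Families and partners of these genes were then read from the same limma fit across all 19754 genes. At an adjusted p below 0.05, 1.70% of all genes were lower and 1.96% higher in Fgfrl1-/- rudiments. Of 153 listed relatives 151 were measured, and 2 of them (1.32%) were lower and 3 (1.99%) higher, shares near those of all genes. Their median log2 ratio was 0.04, against 0.01 over all genes, 0 of them were at least 2-fold lower, and 28 were not well above background on any array. An unadjusted p below 0.05 by limma was given to 21.1% of all genes and to 29 of the 151 relatives, with 1 of 4 SV2 and SVOP transporters, 1 of 7 vesicular transporters, 2 of 12 CAP domain proteins and 0 of 19 basic helix-loop-helix relatives, the lists in which none passed after adjustment. Without array 1 the test called 10 lower and 17 higher among them, and 2257 lower (11.4%) and 2437 higher (12.3%) among all genes.

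No relative of Svopl passed the test: Svop had a log2 ratio of -0.09, Sv2a 0.06, Sv2b -0.24 and Sv2c 0.03, with adjusted p-values by limma from 0.153 to 0.856. None of the 7 measured transporters that load other transmitters into vesicles passed either, and their median was -0.02. Of 34 genes of GABA and glycine synthesis, uptake and reception, 0 were lower. When the probes of each gene were averaged, or the pools of an array were not paired, 1 was lower and 0 were higher. Without array 1, 2 were lower and 3 higher, against 11.4% and 12.3% of all genes. Gad1 and Gad2, the enzymes that make GABA, were not well above background in either genotype on any array, and nor was the glycine transporter Slc6a5, while Slc32a1 was measured in all 6 channels. Gabrp, a subunit of the GABA receptor, had the highest value of the list at 0.91 ± 1.86, with log2 ratios of 0.01, 3.06 and -0.32, so that it rested on array 2 and did not pass the test (adjusted p = 0.485 by limma).

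Around Amph, 1 of 23 measured genes of clathrin-mediated endocytosis was lower and 0 were higher. Snap91, a clathrin assembly protein of synapses, had log2 ratios of -0.85, -0.77 and -0.72, with a mean of -0.78 ± 0.0669 (SD, n = 3, adjusted p = 0.0134 by limma). Its second probe, well above background in 1 of 6 channels, gave 0.02. Bin1, the closest relative of Amph, had a log2 ratio of 0.09 (adjusted p = 0.578 by limma).

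Around Pcp4, 0 of 22 calmodulin genes and calmodulin partners were lower and 1 was higher, Camk2d, a calmodulin-dependent kinase subunit, at 0.68 ± 0.253 (SD, n = 3, adjusted p = 0.0385 by limma). The other 4 probes of Camk2d gave -0.08, -0.04, 0.29 and 0.34. Averaged over its probes Camk2d was at 0.24 (adjusted p = 0.155 by limma), and its call was also lost with median centring, quantile normalisation and the authors' ratios. The near relative Pcp4l1 had a log2 ratio of 0.17 (adjusted p = 0.249 by limma). None of the 19 relatives of Bhlhe22 among the basic helix-loop-helix factors and their partners passed the test. Its partner Prdm8 had a log2 ratio of 0.02, and the closest relative Bhlhe23 had 0.04. Both were dim: Prdm8 was well above background in 2 Fgfrl1-/- and 0 wildtype channels, and Bhlhe23 in 1 and 0. Of the 19 relatives, 6 were not well above background on any array.

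Of 12 measured CAP domain proteins, 0 passed the test, and 5 were not well above background on any array. Of 16 aldo-keto reductases 0 were lower and 1 was higher, Akr1c14, a reductase of steroids, with log2 ratios of 0.68, 0.84 and 0.81 that averaged 0.78 ± 0.0818 (SD, n = 3, adjusted p = 0.0135 by limma). With median centring this call was lost (adjusted p = 0.102 by limma) and another reductase, Akr1b3, was called lower at -0.79. Akr1b8 and Akr1b10, which lie next to Akr1b7, had log2 ratios of -0.06 and 0.08. Of 14 organic anion transporters of the Slco family, 7 not well above background on any array, 1 was lower and 0 were higher. This was Slco4a1, the relative of the same subfamily as Slco4c1, with log2 ratios of -0.56, -0.75 and -0.56 that averaged -0.62 ± 0.105 (SD, n = 3, adjusted p = 0.021 by limma). Its call was lost with median centring (adjusted p = 0.106 by limma) and when the pools of an array were not paired (adjusted p = 0.0732 by limma). The calls of Snap91, Camk2d, Akr1c14 and Slco4a1 were lost when array 2 or array 3 was left out, where the whole fit called 38 and 8 genes lower, and with no offset or the scanner software's ratios, where it called 0.

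**Figure D4:**
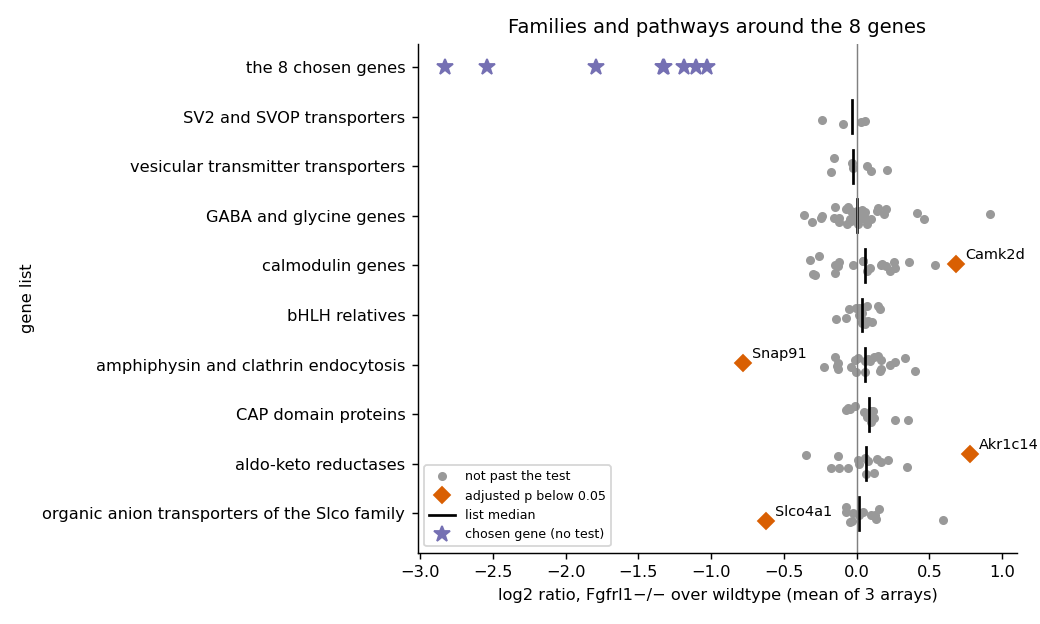
Log2 ratio of Fgfrl1-/- over wildtype (x axis, mean of 3 arrays) for the relatives in 9 lists (y axis, without 1 gene that is not reported here), 1 point per gene with its position within a list spread at random for legibility, list medians as black bars and 4 genes past the test as diamonds with their names. The 8 chosen genes, drawn as stars without a test, lie below -1, and all relatives lie above it.

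The position of the 8 genes in the genome was read through their neighbours. Of the nearest 2 measured protein-coding genes on each side, 32 in all, 1 was lower and 0 were higher, and their median log2 ratio was -0.06. The one that was lower was Ppp1r16b, a protein phosphatase subunit 2 measured genes away from Slc32a1. It was at -0.56 ± 0.155 (SD, n = 3, adjusted p = 0.0347 by limma). Igsf5, an immunoglobulin superfamily member 2 measured genes away from Pcp4, had a log2 ratio of -0.55 ± 0.279. It did not pass (adjusted p = 0.0624 by limma). No neighbour was at least 2-fold lower. The call of Ppp1r16b was lost without array 2 or array 3, with a single value per slide, median centring, quantile normalisation and the authors' ratios, and when its probes were averaged, which moved it to -0.28 (adjusted p = 0.0721 by limma). Without array 1, 7 of the 32 neighbours were lower and 2 higher, against 11.4% and 12.3% of all genes.

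For 7 of the 8 genes RefSeq (GRCm38.p6) gave the 250 bases before and 50 after the start of the gene. The letters CANNTG of the E-box, bound by basic helix-loop-helix factors, occurred in all 7 windows and in 72.3% of all 32851 windows of this length. The TCF/LEF letters CTTTGA, which are tied to canonical Wnt signalling, were found on either strand in 1 of the 7, that of Amph, and in 16.0% of all windows. The variant CTTTGT was found in 1, that of Akr1b7, and in 18.7% of all. The CCAAT box CCAAT was in 2 of the 7, Akr1b7 and Pcp4, and in 37.4% of all, and the GC box GGGCGG in that of Slco4c1 alone and in 35.7% of all. TATAAA and CCGGAA were in 0 of the 7, and in 13.6% and 14.9% of all. The windows with TCF/LEF letters, in capitals, are shown because they are the only windows of the 7 that hold them.
Amph (chr13:18948101-18948400, plus strand): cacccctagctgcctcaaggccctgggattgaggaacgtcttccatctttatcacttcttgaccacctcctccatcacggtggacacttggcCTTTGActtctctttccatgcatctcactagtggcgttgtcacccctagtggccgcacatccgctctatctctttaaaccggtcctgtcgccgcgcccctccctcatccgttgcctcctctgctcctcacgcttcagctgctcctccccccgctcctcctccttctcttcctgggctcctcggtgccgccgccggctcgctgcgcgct
Akr1b7 (chr6:34412112-34412411, plus strand): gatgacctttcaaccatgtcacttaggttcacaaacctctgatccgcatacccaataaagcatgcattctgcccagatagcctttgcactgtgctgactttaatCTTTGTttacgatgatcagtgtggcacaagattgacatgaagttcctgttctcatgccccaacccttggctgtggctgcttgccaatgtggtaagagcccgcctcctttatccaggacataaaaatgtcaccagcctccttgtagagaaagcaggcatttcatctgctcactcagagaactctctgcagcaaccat

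For each gene the other genes with the most similar ratios were sought among 24296 probes that were well above background in all 3 wildtype channels, by the root mean square difference of the 3 log2 ratios. Svopl was nearest to Krt23, a keratin, at 0.305, and Slc32a1 to Wnt4, a signal of the pretubular aggregate, at 0.214, and then to Krt23 at 0.216. Wnt4 had log2 ratios of -2.09, -2.35 and -2.77. Pcp4 was nearest to the cadherin Cdh4 at 0.216 and then to Fgfrl1 itself at 0.299. Like Pcp4, both Cdh4 and Fgfrl1 had their widest difference on array 3, as did Wnt4.

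The genes with smaller differences had closer company. Bhlhe22 lay nearest to Lmcd1 (0.103) and the Notch target Hes5 (0.110), and Amph nearest to Gpx6 and the Notch target Hey1, both at 0.102. Clec18a lay nearest to Aldh1a7 (0.0827) and C1qtnf12 (0.116), Akr1b7 to C1qtnf12 (0.0528) and B3galt5 (0.082), and Slco4c1 to Plekhg6 (0.0661). Likeness over 3 arrays with ratios of 1 size describes size and spread only.

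Markers of the cell types in the rudiment moved as follows, from lists written with earlier results of these data known. Of 13 markers of the nascent nephron, many of which the study chose on these arrays, 8 were lower (Wnt4, Lhx1, Pax8, Fgf8, Jag1, Dll1, Bmp2 and Hes5) and 0 higher, with a median log2 ratio of -0.91. Their summed log2 signal was 12.58 to 12.95 in Fgfrl1-/- pools and 13.53 to 13.78 in wildtype pools. Of 12 cap mesenchyme markers 3 were lower (Cited1, Gdnf and Itga8), of 12 ureteric markers 1 was lower (Wnt11) and 2 higher (Wnt9b and Krt18), and of 10 stroma markers 4 were higher (Foxd1, Pdgfra, Col1a1 and Cxcl12). Over all genes, 1.70% were lower and 1.96% higher. The 8 nascent nephron calls became 10 lower and 1 higher without array 1, 5 lower without array 2 and 2 lower without array 3, and those of cap mesenchyme were 6, 0 and 0. Without array 1 the test called 11.4% of all genes lower and 12.3% higher. The ureteric list then had 1 lower and 7 higher, and the stroma list 3 lower and 6 higher. The ureteric calls were lost without array 2 or array 3, and of the stroma calls 1 was left without array 2 and 0 without array 3. With the authors' ratios 1 ureteric marker was lower and 0 were higher. With median centring in place of loess no ureteric or stroma marker was called higher, and 1 stroma marker, Tcf21, was lower at -0.82. The part of cell composition in the differences of the 8 genes was not tested.

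Since several of the 8 genes are known from neurons, 19 neural markers were read as well. Of these 1 was lower, Elavl4, an RNA-binding protein of neurons, at -0.71 ± 0.331 (SD, n = 3, adjusted p = 0.0488 by limma), and 0 were higher, with a median of -0.03. Their summed log2 signal ran from 11.90 to 12.93 in Fgfrl1-/- pools and from 12.12 to 12.93 in wildtype pools. Within arrays 1, 2 and 3 the sums were 12.93, 11.90 and 11.93 in Fgfrl1-/- pools and 12.93, 12.12 and 12.45 in wildtype pools, so that Fgfrl1-/- was lower on arrays 2 and 3. Without array 1, 4 were lower and 1 higher, against 11.4% and 12.3% of all genes, and without array 2 or array 3 none passed. Chgb, a protein of secretory granules, had the lowest value at -0.95 ± 0.988 and did not pass the test (adjusted p = 0.186 by limma). The call of Elavl4 was also lost without background subtraction (adjusted p = 0.0557 by limma) and with dim probes left out (adjusted p = 0.0516 by limma). The authors' ratios, a single value per slide, no offset and the scanner software's ratios lost it too, while median centring and quantile normalisation kept it. Since Slco4c1 is a transporter of the proximal tubule, 12 genes listed as tubule markers were read too, without regard to their expression elsewhere in the rudiment. Of these 0 were lower and 1 was higher, Cdh16, at 1.11 ± 0.308 (SD, n = 3, adjusted p = 0.0178 by limma), with a median of -0.03. The call of Cdh16 was lost without array 3 (adjusted p = 0.157 by limma). It was also lost with median centring (adjusted p = 0.0616 by limma) and a single value per slide (adjusted p = 0.0564 by limma). With no offset or the scanner software's ratios it was lost too. Without array 1, 3 tubule markers were lower and 1 higher, against 11.4% and 12.3% of all genes. Of 10 measured blood and vessel markers 0 passed limma's test (1 at an unadjusted p below 0.05).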

How the data were processed

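For each array the authors deposited Agilent Feature Extraction output (version 9.5.3.1 for array 1, 10.5.1.1 for arrays 2 and 3): median spot and background intensity in each channel, processed intensity, and the log10 ratio of red over green. They also deposited log2 ratios per probe made with R and Bioconductor, used as an alternative only. The members and all gene lists were chosen with earlier results of these data known.

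Each array had 45018 spots, of which 1639 control spots were left out, and 0 spots were saturated. Signals were corrected with normexp (offset 50), normalised by loess, and averaged per probe without outlier spots (limma 3.58.1, R 4.3.3). Adding an offset shrinks the ratios of dim probes. Log2 signals per channel were taken after Aquantile scaling. A gene was represented by its brightest probe. Ratios were fitted with lmFit and eBayes, 2-sided, which pairs the pools of an array, and adjusted by Benjamini and Hochberg over 19754 genes. The spots well above background made up 57.7% to 80.5% of an array in Cy3 and 61.5% to 65.5% in Cy5, and 3 arrays limit the precision. Symbols came from RefSeq (GRCm38.p6), by accession for 24375 probes by the first listed and 121 by another, by current symbol for 6234 and by older symbol for 2386, while 8058 were not assigned. The code was tested on simulated data.

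Named are all probes of the 8 genes, relatives past the test, neighbours, marker genes, Fgfrl1 and, per gene, the 2 most similar probes; 2 genes that this rule names are not reported here. Relatives and neighbours that did not pass were named after their values were seen. The 15 alternatives changed the background correction, normalisation, filter, choice of probe, variance model, pairing, slides and arrays used.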

Additional observations from a re-analysis of the deposited data

How the results depend on the processing

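All 8 genes kept their direction under all 15 alternatives, but this direction on the same arrays had chosen them. The alternatives in variance model and pairing could not change their ratios. Their median log2 ratio of -1.33 became -1.70 without background subtraction, -2.27 with an offset of 0, -2.83 with the scanner software's ratios, -1.49 with median centring, -1.15 when the probes of each gene were averaged and -1.68 with the authors' ratios, and ran from -1.35 to -1.31 with 1 array left out. Of 336 genes lower and 387 higher, an offset of 0 left 0 and 0 (unadjusted p below 0.05 in limma: 3279 genes), and the scanner software's ratios 0 and 0 (2825 genes). The authors' ratios gave 157 and 113, a single value per slide 32 and 6, median centring 17 higher and quantile normalisation 212 higher. Leaving out 1 array gave 8 to 2257 lower and 0 to 2437 higher (0 without array 3, where limma gave 2259 genes an unadjusted p below 0.05). Counts were highest without array 1, which lay on its own slide. Of the relatives, 2 lower and 3 higher became 0 and 0 with an offset of 0 (33 at an unadjusted p below 0.05), with the scanner software's ratios (27) and with a single value per slide (17). Quantile normalisation and the authors' ratios each left 1 higher. Median centring called 2 lower and 1 higher, but only 1 of these, Snap91, was among the 5 relatives called under the processing reported here. Leaving out 1 array gave 0 to 10 lower and 0 to 17 higher. The causes were not tested.

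The ratio pairs the pools of an array. With no replicate block, in a fit of separate channels with an intraspot correlation of 0.517, 364 genes were lower and 433 higher, and 2 and 3 of the relatives, of which 3 were among the 5 called with the pairing. The call of Slco4a1 was lost, and Slco2b1 was called higher. The slide as a random block could not be fitted, because its correlation came out undefined. The number of arrays and the nearness of several Fgfrl1-/- signals to background limit the fold changes.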
